A study of Homo sapiens with 3 samples.

Results

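YAP1 and WWTR1 (also called TAZ), the TEAD factors TEAD1, TEAD3 and TEAD4, and the genes CCN1, CCN2, AMOTL2, LATS2 and ANKRD1 were examined in bladder cancer cells depleted of WDR5, a core subunit of the MLL/SET1 complexes that methylate histone H3 at lysine 4. The 10 genes were listed by name, and the group was selected on the array values of YAP1, which was lower with si-WDR5-2 and higher with si-WDR5-3. All values of these contrasts are therefore a description. The members were all probe sets whose only annotated gene was on the list, 28 probe sets of the 49293 on the array, and the array named 18155 genes in this way. The cells were UM-UC-3, an established human line from a bladder tumour, and had been transfected for 48 h with si-WDR5-2, si-WDR5-3 or a control siRNA, each at 75 nM with a lipid reagent, and each condition supplied total RNA to 1 PrimeView array of Affymetrix. The 3 arrays thus hold no replicate of a condition, no difference can be set against a spread between cultures, and no p-value is given for a single siRNA. The errors given are the spread over the probe sets of a gene, which measures probes and not cells.

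The siRNAs are shown because the results turn on the contrast between them. The labels place the target of si-WDR5-2 at position 999 and that of si-WDR5-3 at position 585 of the WDR5 coding sequence. These positions were not checked against a WDR5 sequence. In each sequence the 19 bases that pair in the duplex are in capitals and the 2-base overhang is in lower case.
si-WDR5-2: GCUCAGAGGAUAACCUUGUtt
si-WDR5-3: CCCAGUCCAACCUUAUUGUtt
control siRNA: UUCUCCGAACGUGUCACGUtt

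YAP1 and WWTR1 are transcriptional coactivators that do not bind DNA themselves and act mainly through the TEAD proteins, which do. The kinases of the Hippo pathway end in LATS1 and LATS2, which phosphorylate YAP1 and WWTR1 and keep them out of the nucleus. CCN1 and CCN2 encode secreted matricellular proteins and are standard readouts of YAP1 and TEAD activity, as are ANKRD1 and AMOTL2, while LATS2 and AMOTL2 also restrain YAP1 and so close a feedback loop. YAP1 activity has been linked to the growth of urothelial cancer cells. The arrays measured mRNA, and neither the phosphorylation of YAP1 nor its place in the cell.

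WDR5 mRNA had intensities of 204 and 218 on the 2 probe sets with si-WDR5-2 and of 315 and 306 with si-WDR5-3, against 1013 and 947 with control siRNA, so that its gene ratios were 0.215 and 0.317. The median intensity over all probe sets came to 149.9 with si-WDR5-2, 151 with si-WDR5-3 and 151 with control siRNA, and the arrays were taken to be on a common scale. Interferon-induced genes were listed because they were already known from these data to stand apart on the si-WDR5-2 array. Of the 12 listed, 10 passed the brightness filter (probe sets averaging under 152, the middle value over the whole array, were left out). All 10 were at least 1.5 times the control with si-WDR5-2, at 2.25 to 8.72 times, where 5.00% of all genes were. With si-WDR5-3 all 10 lay below the control, at 0.436 to 0.841 times, as did 5784 of all 11501 genes past the filter. Of the 10, 8 were at 1/1.5 times the control or less with si-WDR5-3, where 1.57% of all genes were. The part of the interferon-induced genes in the values of the YAP1 and TEAD genes was not tested. Among 6 mesenchymal markers 5 passed the filter, with VIM (vimentin) at 7727 to 10126 on all arrays. Among 14 urothelial and epithelial markers 7 passed it, with the keratin KRT18 at 1052 to 2155, while the adhesion genes CDH1 and EPCAM stayed at 58.6 to 106 and the urothelial factor GATA3 at 61.3 to 125. The array table holds no detection calls, and passing the filter does not show expression: the endothelial marker PECAM1 had a probe set at 274 to 287 on the 3 arrays.

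YAP1 mRNA was lower with si-WDR5-2 and higher with si-WDR5-3 than with control siRNA. On its brightest probe set the intensity reached 640.5 after si-WDR5-2 and 2135.5 after si-WDR5-3, against 1421 with control siRNA. The next 3 probe sets had 605, 564 and 599 with si-WDR5-2 and 2212, 1994 and 1853 with si-WDR5-3, against 1341, 1197 and 1175 with control siRNA. On these 4 probe sets si-WDR5-2 was thus the lowest and si-WDR5-3 the highest array, the order for which the group was chosen. The 4 probe sets read the same 3 RNA samples and are not replicates. The ratios to control were 0.451 to 0.509 with si-WDR5-2 and 1.502 to 1.67 with si-WDR5-3. Between the siRNAs, si-WDR5-2 stood at 0.273 to 0.323 times si-WDR5-3.

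The other 4 probe sets of YAP1 did not all share this pattern. Of those past the filter, 1 read 294 with si-WDR5-2 and 303 with si-WDR5-3, against 295 with control siRNA, and the other read 248 and 239 against 233. These 2 probe sets were nearly flat over the arrays, with ratios from 0.999 to 1.06. The annotation assigns both to a different YAP1 transcript record from those of the 4 bright probe sets. Their intensities, 233 to 303, lie on both sides of those of the PECAM1 probe set given above. Below the filter, 1 probe set read 99.5 with si-WDR5-2 and 159 with si-WDR5-3, against 134 with control siRNA, the same order as the bright ones, and the other was flat at 128, 133 and 129. Over the 6 probe sets past the filter the median log2 ratio of YAP1 was -1.03 (SD 0.59 over probe sets) with si-WDR5-2 and 0.62 (SD 0.33) with si-WDR5-3, or 0.490 and 1.54 times the control. Some of these probe sets, bright ones included, are of kinds that may bind transcripts of several genes. Without such probe sets 3 remained, and the log2 ratios were -1.09 with si-WDR5-2 and 0.59 with si-WDR5-3. By its log2 difference between the siRNAs, -1.68, YAP1 had rank 5 from the lowest of 11501 genes past the filter. In these RNA pools, fewer expressing cells and less RNA per cell cannot be told apart.

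**Figure D1:**
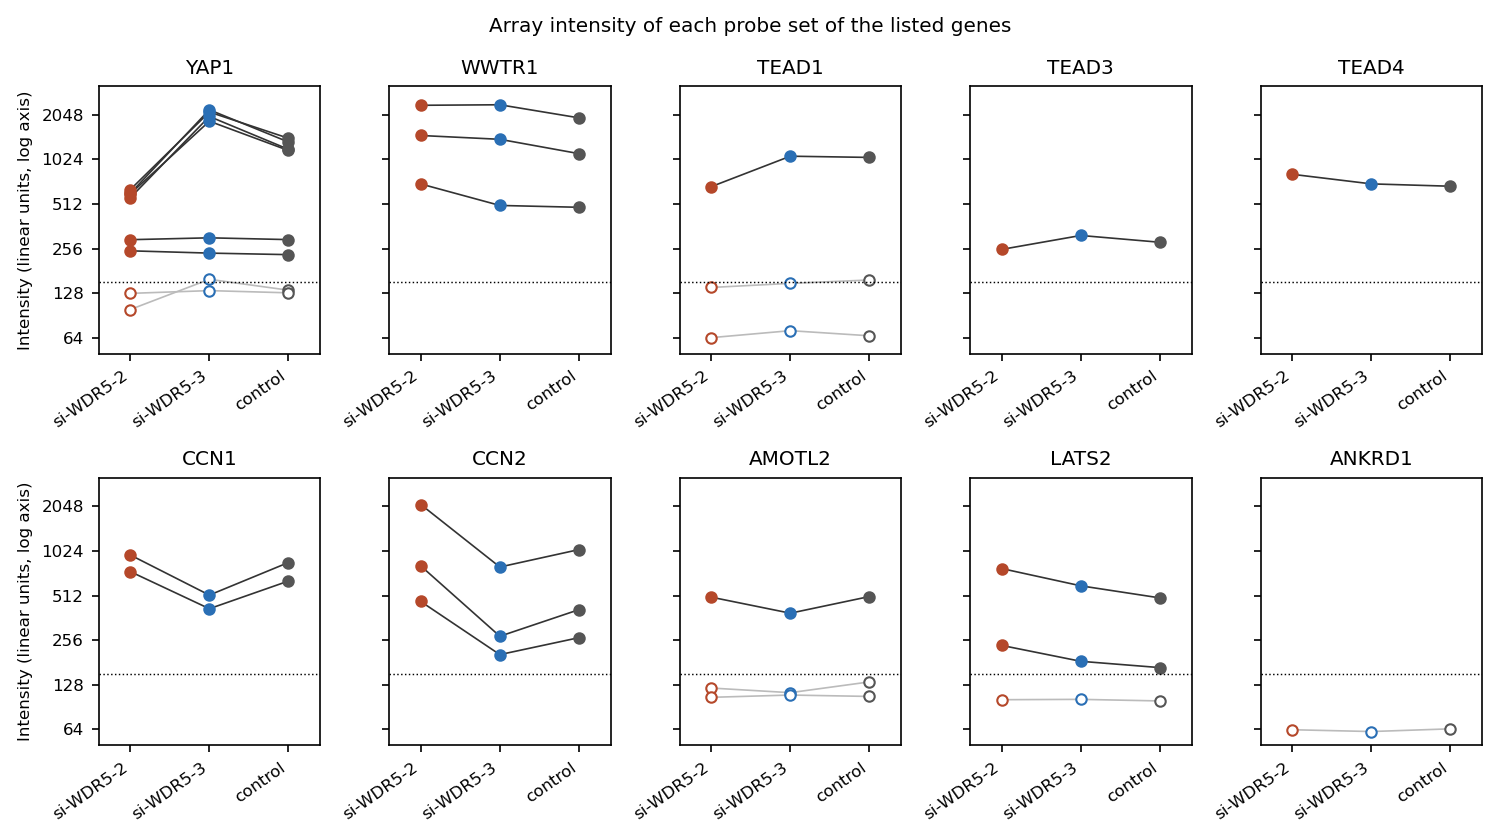
Intensity of every probe set (log axis, linear units) with si-WDR5-2, si-WDR5-3 and control siRNA for the 10 listed genes, with 1 line per probe set, filled points past the filter, open points below it and the dotted line at the filter. The 4 bright YAP1 probe sets are lowest with si-WDR5-2 and highest with si-WDR5-3, and the CCN1 and CCN2 probe sets have the opposite order.

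WWTR1, the paralog of YAP1, did not follow it. Its probe sets read 2372, 1484 and 699 with si-WDR5-2 and 2391, 1398.5 and 501 with si-WDR5-3, against 1952, 1120 and 487 with control siRNA. All 3 lay above the control with each siRNA, by 1.22 to 1.44 times with si-WDR5-2 and by 1.03 to 1.249 times with si-WDR5-3, under the 1.5-fold limit used for counting. The gene value was 1.33 and 1.23 times the control, or 0.41 (SD 0.12) and 0.29 (SD 0.15) on the log2 scale. Between the siRNAs the probe sets of WWTR1 were at 0.992, 1.06 and 1.40 times, with the dimmest at the highest ratio.

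The TEAD factors differed among themselves. TEAD1 read 671 with si-WDR5-2 and 1076 with si-WDR5-3, against 1056 with control siRNA, and was at 0.635 and 1.02 times the control. This value rests on 1 probe set, of a kind that may bind transcripts of several genes, and was -0.17 on the log2 scale with si-WDR5-2 when dim probe sets were kept. The other 2 were below the filter and read 140 and 64.3 with si-WDR5-2 and 149 and 71.6 with si-WDR5-3, against 157 and 66.2 with control siRNA. TEAD3 had 253 with si-WDR5-2 and 314 with si-WDR5-3, against 283 with control siRNA, which gives 0.895 and 1.11 times. TEAD4 had 812 with si-WDR5-2 and 700.0 with si-WDR5-3, against 675 with control siRNA, or 1.20 and 1.04 times. TEAD1 and TEAD3 therefore had their lowest value on the si-WDR5-2 array, as YAP1 did, and TEAD4 its highest. TEAD3 and TEAD4 each have 1 probe set on the array, so their ratios have no spread over probes.

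CCN2, encoding connective tissue growth factor, was the member with the largest ratio with si-WDR5-2. Its probe sets read 2104, 811 and 467 with si-WDR5-2 and 797, 272 and 205 with si-WDR5-3, against 1045, 411 and 266 with control siRNA. On each of the 3 probe sets the si-WDR5-2 array was the highest and the si-WDR5-3 array the lowest, the reverse of the order of YAP1. The gene ratio was 1.97 with si-WDR5-2 (log2 0.98, SD 0.11) and 0.763 with si-WDR5-3 (log2 -0.39, SD 0.12). Without the brightest probe set, which may bind transcripts of several genes, the log2 ratios were 0.90 with si-WDR5-2 and -0.49 with si-WDR5-3. Set directly against si-WDR5-3, si-WDR5-2 was at 2.64 times, rank 73 from the highest of all genes.

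CCN1, its family member, had 961 and 742 with si-WDR5-2 and 515 and 417 with si-WDR5-3, against 855 and 641 with control siRNA. The order of the arrays was that of CCN2, but the distance from the control lay mainly with si-WDR5-3. The gene ratio was 1.14 with si-WDR5-2 (log2 0.19, SD 0.030) and 0.627 with si-WDR5-3 (log2 -0.67, SD 0.078), and si-WDR5-2 was at 1.82 times si-WDR5-3. CCN3, CCN4, CCN5 and CCN6, the other CCN genes, had no probe set past the filter, and their probe sets read 55.5 to 151 over all arrays.

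The promoters of CCN2 and YAP1 are shown because CCN2 is the readout gene that lay furthest from the control and YAP1 encodes the coactivator it is used to read out. The TEAD recognition sequence GGAATG, searched on both strands (CATTCC on the other strand), is in capitals. The sequences are from RefSeq and hold the 250 bases before the annotated start, while the search also covered the 50 bases after it.
CCN2, GRCh38.p14 chr6:131951373-131951622, minus strand: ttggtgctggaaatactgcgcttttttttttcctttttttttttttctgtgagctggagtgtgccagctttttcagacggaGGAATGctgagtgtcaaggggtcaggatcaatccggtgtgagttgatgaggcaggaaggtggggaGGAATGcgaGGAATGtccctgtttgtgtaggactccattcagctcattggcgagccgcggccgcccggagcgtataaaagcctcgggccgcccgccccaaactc
YAP1, GRCh38.p14 chr11:102110197-102110446, plus strand: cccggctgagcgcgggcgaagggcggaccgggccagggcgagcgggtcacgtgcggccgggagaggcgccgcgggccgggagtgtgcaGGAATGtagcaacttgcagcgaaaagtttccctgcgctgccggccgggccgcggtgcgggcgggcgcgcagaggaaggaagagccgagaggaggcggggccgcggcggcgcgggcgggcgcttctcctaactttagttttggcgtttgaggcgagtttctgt

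The CCN2 promoter held the motif 3 times, beginning 169, 104 and 95 bases before the start, and the YAP1 promoter once, 162 bases before it. Of the 10 genes 7 had an entry in the promoter table (all but TEAD1, TEAD4 and CCN1). The motif was also found at 220 and 128 bases before the start of ANKRD1 and at 9 bases after the start of LATS2. It was not found in the windows of WWTR1, TEAD3 and AMOTL2. Thus 4 of 7 windows held it, against 14.0% of all 35116 windows of this length and 5 of 15 windows of the wider target list given below. A match describes the letters in the window and not a bound site.

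LATS2, the Hippo kinase that is also a YAP1 and TEAD target, read 778 and 236 with si-WDR5-2 and 595 and 184 with si-WDR5-3, against 493 and 167 with control siRNA. Both probe sets were highest with si-WDR5-2 and lowest with control siRNA. Its ratios of 1.49 and 1.15 (log2 0.58, SD 0.11, and 0.21, SD 0.092) left it just under the limit of 1.5 with si-WDR5-2, and its remaining probe set was dim, at 99.6 to 102. AMOTL2, an angiomotin-like scaffold that binds YAP1, read 499 with si-WDR5-2 and 389 with si-WDR5-3, against 504 with control siRNA, which is 0.991 and 0.772 times. As with CCN1 and CCN2, the lowest array was that of si-WDR5-3. AMOTL2 rests on 1 of 3 probe sets, and the dim ones read 122, 113 and 134, and 105, 109 and 107. ANKRD1, an ankyrin repeat protein of the nucleus, had 1 probe set, which read 63.7 in the si-WDR5-2 array and 61.9 in the si-WDR5-3 array, against 64.6 with control siRNA. These values are near the lowest of the arrays, 45.5, and a difference was not detectable at this level.

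**Figure D2:**
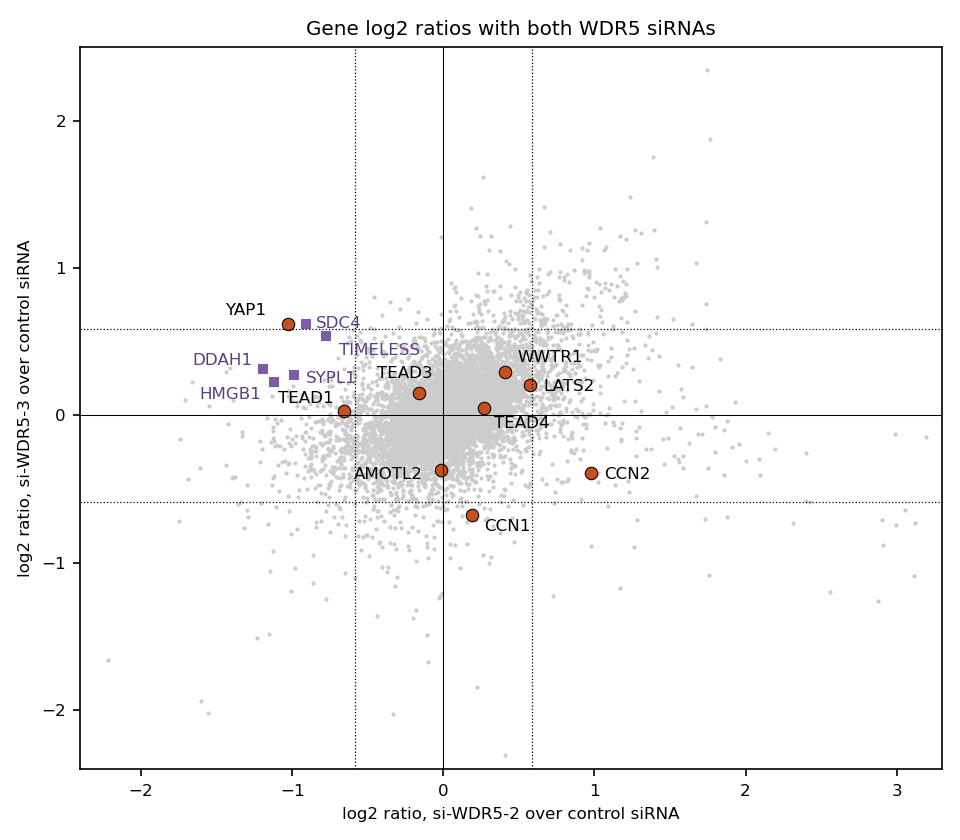
Gene log2 ratio with si-WDR5-2 over control (x axis) and with si-WDR5-3 over control (y axis) for 11501 genes past the filter (grey), with the 9 listed genes past it as circles, the 5 genes nearest to YAP1 as squares and dotted lines at 1.5-fold. YAP1 lies at -1.03 and 0.62 and CCN2 at 0.98 and -0.39, in opposite corners, while CCN1 lies at 0.19 and -0.67. Both axes share the control array.

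Counted at 1.5-fold, 1 of the 9 members past the filter was higher with si-WDR5-2 (CCN2) where 5.00% of all genes were, and 2 were lower (YAP1 and TEAD1) where 3.35% were. With si-WDR5-3, 1 was higher (YAP1) where 2.34% of all genes were, and 1 was lower (CCN1) where 1.57% were. Set against each other, si-WDR5-2 exceeded si-WDR5-3 at CCN1 and CCN2 (3.53% of all genes) and lay below it at YAP1 and TEAD1 (3.08%). The group was chosen for YAP1, so nothing is read from these counts. The members did not lie on 1 side of the control: 5 were above and 4 below it with si-WDR5-2, and 6 above and 3 below with si-WDR5-3, where TEAD1, at 0.027, passed to the other side with quantile normalization and with the filter at the 25th percentile. Their median log2 ratios of 0.19 and 0.053 stood beside -0.022 and -0.00092 over all genes. Both comparisons use the same control array. Over all genes past the filter, 43 (0.374%) were lower with si-WDR5-2 and higher with si-WDR5-3 by at least 0.32 each on the log2 scale, YAP1 among them. The reverse was met by 75 (0.652%), CCN2 among them. At 1.5-fold each way the pattern of YAP1 was met by 2 genes (0.0174%), YAP1 and SDC4, and the reverse by 20 (0.174%), with 0 members among them. Of these 20, 8 were interferon-induced genes of the list given above.

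SDC4, the focal adhesion proteoglycan syndecan-4, was also the gene nearest to YAP1 in pattern, at a distance of 0.12 over the 2 log2 ratios. Its brightest probe set read 624 with si-WDR5-2 and 1868 with si-WDR5-3, against 1171 with control siRNA, and its gene ratios were 0.533 and 1.54. That probe set may bind transcripts of several genes, as may most probe sets of SYPL1 and HMGB1, named below. The next nearest were TIMELESS, a protein of the replication fork (0.585 and 1.45 times), and DDAH1, which degrades asymmetric dimethylarginine (0.438 and 1.24 times). SYPL1, a synaptophysin-like membrane protein (0.504 and 1.21 times), and HMGB1, a chromatin protein (0.460 and 1.17 times), followed at distances of 0.35 and 0.40. As for YAP1, not all probe sets of SYPL1 and HMGB1 shared the pattern. The dimmest SYPL1 probe set is its only one not of the kinds that may bind several genes. It read 726 with si-WDR5-2 and 970 with si-WDR5-3, against 997 with control siRNA, and so was below the control with both. A probe set of HMGB1 read 348 with si-WDR5-2 and 343 with si-WDR5-3, against 371 with control siRNA. TIMELESS and DDAH1 rest on 1 probe set each. The likeness is over 2 ratios that share 1 control array.

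Of 21 further genes known as YAP and TEAD targets, 20 had a probe set of their own and 14 passed the filter. With si-WDR5-2, 3 were higher and 1 was lower, where 5.00% and 3.35% of all genes were. With si-WDR5-3, 2 were higher and 1 was lower, where 2.34% and 1.57% of all genes were. The median log2 ratios were 0.12 and 0.11. IGFBP3, which binds insulin-like growth factors, was at 1.87 and 1.502 times the control, CCDC80, a matrix protein, at 1.51 and 1.72 times, and MYOF, a membrane repair protein, at 1.28 and 1.44 times, so that these genes lay above the control with both siRNAs. IGFBP3 read 480 and 199 with si-WDR5-2 and 345 and 178 with si-WDR5-3, against 206 and 132 with control siRNA. F3, tissue factor, was at 1.83 and 1.22 times. F3 and CCDC80 each passed on 1 probe set, of 3 and of 6, which read 282 and 188 for F3 and 174 and 198 for CCDC80 with the siRNAs, against 154 and 115 with control siRNA. The probe sets of IGFBP3 and this one of CCDC80 may bind transcripts of several genes. Without such probe sets 1 gene was higher with si-WDR5-2, where 4.77% of all genes were, and 0 with si-WDR5-3, where 2.23% were.

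AXL, a receptor tyrosine kinase, had its arrays in the order of YAP1. It read 1174 and 252 with si-WDR5-2 and 3098 and 347 with si-WDR5-3, against 2539 and 322 with control siRNA, and its gene ratios were 0.601 and 1.15. GADD45A, a stress-induced growth arrest gene, had that of CCN1. It read 2730.5 with si-WDR5-2 and 1403 with si-WDR5-3, against 2582 with control siRNA, or 1.06 and 0.543 times. AXL thus lay past 1.5-fold with si-WDR5-2 alone and GADD45A with si-WDR5-3 alone.

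**Figure D3:**
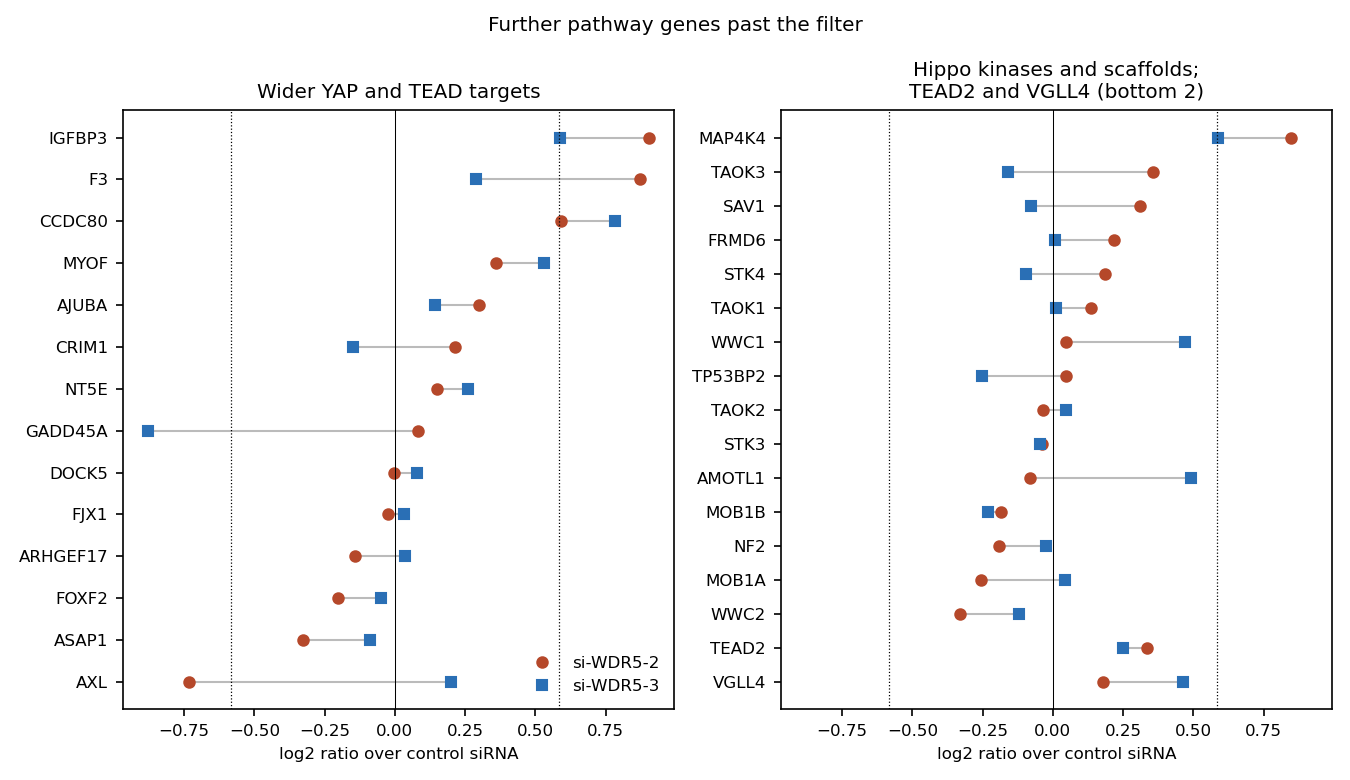
Gene log2 ratios over control with si-WDR5-2 (circles) and si-WDR5-3 (squares) for the wider targets (left) and for the Hippo kinases and scaffolds with TEAD2 and VGLL4 below (right), with dotted lines at 1.5-fold. IGFBP3 and MAP4K4 lie above the control with both siRNAs, while AXL at -0.73 and GADD45A at -0.88 are the lowest values with si-WDR5-2 and with si-WDR5-3.

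Upstream of YAP1, 15 of 17 Hippo kinases and scaffolds passed the filter. Of these, 1 was higher by 1.5-fold with si-WDR5-2, where 5.00% of all genes were, and 1 with si-WDR5-3, where 2.34% were. In both cases it was MAP4K4, and nothing is read about the pathway from 1 gene. This kinase, which can activate the LATS kinases, read 378 to 797 with si-WDR5-2 and 334 to 696 with si-WDR5-3 on its 5 probe sets, against 222 to 487 with control siRNA. Each probe set was higher with both siRNAs, by 1.54 to 2.04 and by 1.43 to 1.92 times, and the gene value was 1.80 and 1.502 times, where the value for si-WDR5-3 was under the limit with median centring and with an offset of 84.8 added to all intensities. No gene of this list was lower by 1.5-fold, where 3.35% of all genes were with si-WDR5-2 and 1.57% with si-WDR5-3. SAV1, the partner of the kinases STK3 and STK4, was at 1.24 and 0.946 times. The scaffold WWC1 was at 1.03 and 1.39 times, WWC2 at 0.795 and 0.921 times, the kinase TAOK3 at 1.28 and 0.895 times and AMOTL1, a relative of AMOTL2, at 0.944 and 1.41 times. LATS1 and AMOT had no probe set past the filter, with intensities of 56.7 to 93.1 for LATS1 and 61.3 to 127 for AMOT. The list's median log2 ratios, 0.046 and -0.024, were near those of all genes.

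Of TEAD2 and the VGLL cofactors, which compete with YAP1 for TEAD proteins, TEAD2 and VGLL4 passed the filter. TEAD2 stood at 1.26 times the control for si-WDR5-2 and at 1.19 times for si-WDR5-3, although its 3 probe sets ranged from 0.976 to 1.41 times and from 1.00 to 1.42 times. VGLL4 was at 1.13 and 1.38 times, with 541 and 270 with si-WDR5-2 and 712 and 305 with si-WDR5-3, against 452 and 252 with control siRNA. Neither met the 1.5-fold limit.

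As the only fit with a residual degree of freedom, limma took both WDR5 siRNA arrays as knockdown samples against the control array. It called 0 of 24647 probe sets at an adjusted p under 0.05, and 1097 had an unadjusted p under 0.05. Of the 20 probe sets of the members past the filter, 0 had an unadjusted p under 0.05, and the smallest adjusted p was 0.999 (limma, Benjamini-Hochberg). WWTR1 had the smallest unadjusted limma p, 0.143 for a log2 change of 0.36. This fit measures the spread between the siRNAs, and it cannot call a gene such as YAP1 or CCN2, for which they lie on opposite sides of the control.

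**Figure D4:**
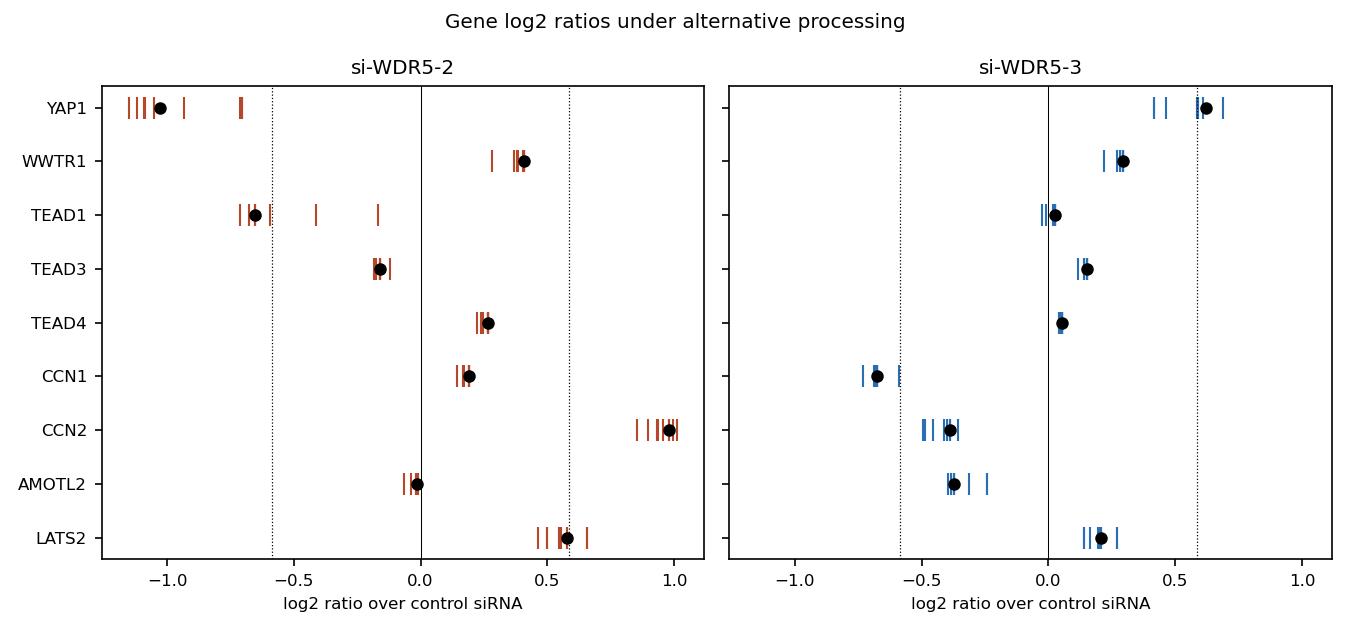
Gene log2 ratio over control of the 9 members past the filter (black points) with si-WDR5-2 (left) and si-WDR5-3 (right), with a tick for each alternative processing and dotted lines at 1.5-fold. YAP1 stayed between -1.15 and -0.70 with si-WDR5-2 and between 0.42 and 0.69 with si-WDR5-3, and TEAD1 reached -0.17 with si-WDR5-2 without the filter.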

How the data were processed

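RNA from UM-UC-3 cells was measured on 3 PrimeView arrays, with 1 array for each condition. The intensities deposited are linear, and the processing notes of the submitters name GCOS 1.4. How background was corrected, probes summarised and arrays normalized is not given in the sources used here. Log2 was taken without an offset and with no further scaling. Probe sets with a mean log2 intensity below the median of all were left out, which kept 24647. The platform annotation gives 45064 probe sets 1 gene symbol, 1756 several and 2473 none, and only the first were used. A gene takes the median of the log2 ratios of its kept probe sets and was counted at 1.5 times the control or more, or at 1/1.5 (0.667) or less. The number of arrays limits the precision. The median SD over probe sets of 5823 genes was 0.078 on the log2 scale for si-WDR5-2 and 0.071 for si-WDR5-3.

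As a fit across all probe sets, limma 3.58.1 in R 4.3.3 (lmFit and eBayes with a trend) took both WDR5 siRNA arrays as 1 group. This assumes that the single control array varies as they do. Ratios and limma were tested on simulated data. The members and gene lists were chosen with earlier results of these data known. Genes were named as all members, up to 6 of each further list furthest from the control, and the 5 nearest to YAP1 by Euclidean distance. The dim LATS1 and AMOT were named after their values were seen. The alternatives were median centring, quantile normalization, other filters, an offset of 84.8, the brightest probe set, the mean over probe sets, other folds, no trend in limma and, added after the data were seen, leaving out probe sets that may bind several genes. Promoter sequences were RefSeq's, build GRCh38.p14.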

Additional observations from a re-analysis of the deposited data

Results flagged for a closer look

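For YAP1 and CCN2, 1 siRNA lay above the control and the other below it, by at least 0.32 each on the log2 scale. The difference between the siRNAs was not tested, as there is 1 array of each. The log2 ratio of si-WDR5-2 over si-WDR5-3 was -1.68 for YAP1 and 1.40 for CCN2. On the 4 bright probe sets of YAP1 it was between -1.87 and -1.63, and on the 2 flat ones -0.042 and 0.051. For CCN2 it was 1.19 to 1.58 on the 3 probe sets.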

How the results depend on the processing

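No member's log2 ratio changed sign where it was past 1.5-fold. Over the alternatives, 224 of 237 values moved by no more than a limit set from the spread over probe sets. This limit was the gene's own SD or the median SD over genes, whichever was larger, and the median for a gene with 1 probe set. A value could thus move by more than its gene's own SD and still be within the limit. For YAP1 the limit was wide, as its SD covers bright and flat probe sets. It was 0.59 with si-WDR5-2, 0.33 with si-WDR5-3 and 0.92 between the siRNAs. YAP1 values therefore stayed within the limit even where the gene fell under 1.5-fold with si-WDR5-3, and the tally says little about YAP1. The counts of members at 1.5-fold are small and moved with the limits. In brackets is the share of all genes called the same way in that setting. Higher with si-WDR5-2 were 2 in place of 1 with the filter at the 75th percentile (7.57%) and with the brightest probe set (6%). LATS2 was the gene added in both, at a log2 ratio of 0.66. The same count was 3 with a log2 limit of 0.32 in place of 0.58 (13.3%), and 0 at 2-fold (1.46%). Lower with si-WDR5-2 was 1 in place of 2 without a filter (1.56%) and with the filter at the 25th percentile (2.12%). It was also 1 without probe sets that may bind several genes (3.25%) and at 2-fold (0.670%). TEAD1 was the gene lost without a filter and with the 25th percentile, at log2 ratios of -0.17 and -0.41. Its only bright probe set is of the kind that may bind several genes. Higher with si-WDR5-3 were 0 in place of 1 without a filter (1.01%), with the 25th percentile (1.36%), with the mean over probe sets (2.30%) and at 2-fold (0.322%). YAP1 stood there at 0.42, 0.42, 0.46 and, with no change in value, 0.62. Lower with si-WDR5-3 were 3 in place of 1 with the log2 limit of 0.32 (6.71%) and 0 at 2-fold (0.313%). Of the wider targets, 1 in place of 3 was higher with si-WDR5-2 without a filter (2.53%) and with the filter at the 75th percentile (7.57%). It was also 1 without probe sets that may bind several genes (4.77%), and 0 at 2-fold (1.46%). With si-WDR5-3, 0 in place of 2 were higher without such probe sets (2.23%), with the offset (1.28%) and at 2-fold (0.322%). The count was 1 with median centring (2.17%), without a filter (1.01%) and with the 25th (1.36%) and 75th (3.94%) percentile filters. Of the Hippo genes, 0 in place of 1 were higher with si-WDR5-3 with median centring (2.17%), with the offset (1.28%) and at 2-fold (0.322%). The pooled limma fit called 0 members under each of its alternatives, with the smallest unadjusted p of a member at 0.074 without a trend. No paired analysis was possible because each condition has 1 array, and no array could be left out for the same reason.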
